A study of Arabidopsis thaliana with 60 samples.

Results

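The genes described here are 48 nuclear genes of the photosynthetic light reactions in Arabidopsis thaliana leaves, 48 of the 25036 genes in the deposited table. They were chosen by gene identifier, with earlier results of these data known. Of them, 20 encode light-harvesting antenna proteins (14 LHCB and 6 LHCA genes), 12 photosystem I subunits and 10 photosystem II subunits. The other 6 encode the Rieske protein, plastocyanin, ferredoxin and ferredoxin-NADP reductase. All 48 passed the filter on low counts and were among the 16763 genes tested. The study asked how leaves respond when 2 layers of immunity are triggered separately or together.

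Leaves were infiltrated with flg22 and estradiol in one solution (flg22+Ed), with 1 µM flg22, with 10 µM estradiol in 0.1% ethanol (Ed), or with 0.1% ethanol (Mock); flg22+Ed also held 0.1% ethanol, and no ethanol is listed for flg22 alone. flg22 is a flagellin peptide that elicits pattern-triggered immunity. Estradiol switches on a transgene for the bacterial effector AvrRpt2, whose action on host proteins elicits effector-triggered immunity. Every plant, Mock included, was of the Col-0 ecotype, carried the Ed-AvrRpt2 transgene and was mutant in dde2, ein2, pad4 and sid2, so that jasmonate, ethylene, PAD4 and salicylic acid signalling was impaired in all groups. The 4-week-old plants were grown at 22 °C and 75% relative humidity in 12 h of light and 12 h of dark, and were treated 3 to 4 h after subjective dawn. Leaves were collected after 60, 120, 180 or 300 min, and leaves labelled 0 min were untouched. A library held leaves of 2 plants, and each of the 20 groups had 3 libraries, 1 from each of 3 independent experiments. Since the transgene acts in the mutant background, the values describe this line and not wild-type leaves.

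Light is absorbed in the thylakoid membrane by chlorophyll bound to antenna proteins, LHCB proteins serving mainly photosystem II and LHCA proteins photosystem I. The reaction centre cores are encoded in the chloroplast, whereas the antennae and many smaller subunits are encoded in the nucleus and imported. Transcripts of these nuclear genes are among the most abundant in a leaf, depend on light, follow the circadian clock, and are known to fall during many stress and immune responses.

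The 60 libraries held 1458920 to 4673355 counts, and 3 counts corresponded to 0.642 to 2.06 CPM, a gene's count relative to the scaled library total. Such floors cover counting error only. In 4 libraries of experiment 2 the clock went against the label. LHY (AT1G01060), a clock gene expressed in the morning, had 316 CPM in experiment 2's library labelled Mock 300 min, against 3.07 and 1.54 CPM in the same group of experiments 1 and 3. That experiment's library labelled Mock 60 min had 250 CPM, against 158 and 149 CPM, and its libraries labelled Mock 0 min and flg22 0 min had 106 and 4.65 CPM, against 252 to 391 CPM in the other 10 untouched libraries. Labels were kept as deposited, and counts of called genes are also given for a fit without these 4 libraries. Response genes were read as a check of the treatments. The flg22-induced kinase gene FRK1 (AT2G19190) stood at 319, 334 and 267 CPM in flg22+Ed leaves, at 239, 354 and 223 CPM in flg22 leaves, at 16.8, 4.43 and 2.04 CPM in Ed leaves and at 0.559, 0 and 0 CPM in Mock leaves at 300 min. Transcripts of the defence regulator genes WRKY33 (AT2G38470) and PAD4 (AT3G52430), the second mutated in all plants, were called higher by edgeR in flg22+Ed than in Mock leaves, by 5.93 ± 0.999 (adjusted p = 2.29e-06) and 5.33 ± 0.72 (adjusted p = 3.71e-08) on the log2 scale. As a check of the tissue, 4 mesophyll marker genes summed to 3567 to 5580 CPM in flg22+Ed leaves and 18469 to 24299 CPM in Mock leaves at 300 min, and 3 root marker genes summed to 0 to 1.68 CPM over the 60 libraries. In bulk leaves, fewer cells of a type and less RNA per cell cannot be told apart.

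At 300 min the 48 genes together took a smaller part of the transcript pool in flg22+Ed leaves than in any other group. Their summed share of all counts was 8.61, 6.72 and 5.67% in flg22+Ed leaves (7.00 ± 1.49, mean ± SD, n = 3), 15.9, 11.6 and 12.3% in flg22 leaves (13.3 ± 2.33), 17, 21.0 and 21.1% in Ed leaves (19.7 ± 2.33), and 26.1, 20.6 and 26.8% in Mock leaves (24.5 ± 3.38), in the order of experiments 1, 2 and 3. The flg22+Ed libraries lay below those of every other group and the flg22 libraries lay below Ed and Mock libraries, whereas the Ed and Mock ranges overlapped, the overlap being with experiment 2's library labelled Mock 300 min. Exact two-sided permutation tests of the share gave p = 0.1 for flg22+Ed against Mock, against flg22 and against Ed, and for flg22 against Mock. This is the smallest p that 3 against 3 libraries allow. For Ed against Mock p was 0.3, and over 14 such comparisons the adjusted values were 0.156 and 0.35. The 48 genes were chosen with earlier results of these data known, so no conclusion is drawn from p-values of the share at any time. The share in the 12 untouched libraries lay between 19.3 and 25.7%, with a median of 20.9%. The highest was experiment 2's library labelled flg22 0 min, whose clock genes went against the label. In the 10 untouched libraries other than the 2 with clock genes against the label, the share lay between 19.3 and 22.0%.

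At the earlier times the share stood closer to Mock. It was 18.3, 18.3 and 18.1% in flg22+Ed leaves at 60 min against 19.0, 21.7 and 19.5% in Mock leaves, 17.9, 14.1 and 11.1% against 22.4, 20.8 and 19.8% at 120 min, and 18, 11.8 and 12.6% against 24.1, 21.3 and 24.5% at 180 min. The flg22+Ed libraries lay below the Mock libraries at each of these times, and the flg22 libraries did so at 120 and 180 min (exact two-sided permutation p = 0.1 for each, adjusted p = 0.156). The Ed libraries overlapped Mock at 60, 120 and 180 min, with exact p = 0.4, 0.8 and 0.2. These tests did not pair the libraries of an experiment; within experiments Ed was below Mock in 3 of 3 at 180 min (20.8, 20.8 and 21.7% in Ed leaves), and flg22 was below Mock in 3 of 3 at 60 min (17.5, 19.3 and 17.1% in flg22 leaves).

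**Figure D1:**
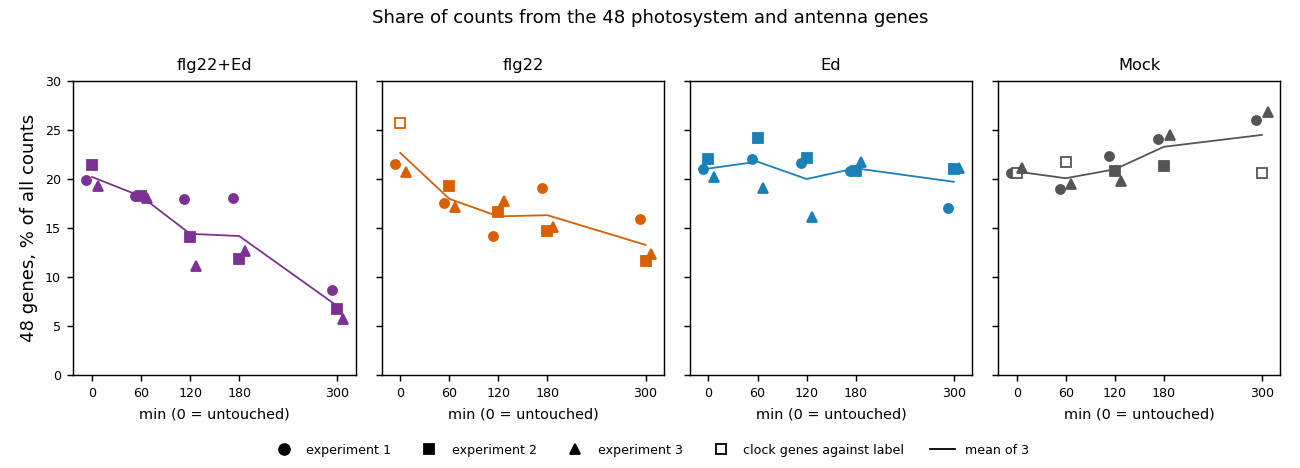
Share of all counts that came from the 48 genes, in percent, against time in min (0 min is untouched), in 4 panels for flg22+Ed, flg22, Ed and Mock leaves. Symbols mark the 3 experiments, open squares the 4 libraries whose clock genes went against the label, and lines the mean of 3 libraries; at 300 min flg22+Ed libraries sit between 5.67 and 8.61% and Mock libraries between 20.6 and 26.8%.

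Comparing flg22+Ed with Mock leaves at 300 min, which measures the response to both elicitors together, all 48 genes were called lower at an adjusted p under 0.05, where 30.5% of the 16763 genes tested were called lower. None was called higher, against 27.9% of all genes. The log2 fold changes lay between -3.82 and -1.27 with a median of -2.0 (4.00-fold lower), and the median over all genes tested was -0.08. The flg22+Ed and Mock libraries did not overlap for 46 of the 48 genes, LHCB1.4 and LFNR2 being the exceptions, against 30.8% of all genes that were lower without overlap. Without the 4 libraries 47 genes were called, LHCB4.3 being the exception, against 29.8% of all genes. Values below are log2 fold changes ± a standard error worked back from the F statistic of edgeR's quasi-likelihood test, with p adjusted over all genes.

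LHCB1 encodes the main subunit of the trimeric antenna of photosystem II, and its 5 copies differed in how far they fell. LHCB1.5 (AT2G34420) had 8514, 6590 and 5582 CPM in flg22+Ed leaves, 13129, 9911 and 12916 CPM in flg22 leaves, 14426, 16233 and 20034 CPM in Ed leaves, and 20360, 12314 and 28773 CPM in Mock leaves at 300 min. Each flg22+Ed library was below each Mock library, and the lowest Mock value came from the library of experiment 2 with clock genes against its label. The change was -1.57 ± 0.23 (adjusted p = 2.46e-07), and -1.82 without the 4 libraries. LHCB1.2 (AT1G29910) had 2528, 2066 and 1656 CPM in flg22+Ed leaves, 6786, 3778 and 4614 CPM in flg22 leaves, 6613, 8593 and 10598 CPM in Ed leaves and 11074, 7768 and 15491 CPM in Mock leaves, again with no overlap between flg22+Ed and Mock. Its change was -2.46 ± 0.24 (adjusted p = 2.6e-11) and that of LHCB1.1 (AT1G29920) was -2.60 ± 0.25 (adjusted p = 2.05e-11), whereas LHCB1.3 (AT1G29930), their neighbour on chromosome 1, changed by -1.54 ± 0.18 (adjusted p = 9.79e-10). LHCB1.4 (AT2G34430) changed by -1.82 ± 0.32 (adjusted p = 6.13e-06).

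LHCB2 and LHCB3 form trimers together with LHCB1, and LHCB2 is the subunit whose phosphorylation drives state transitions. LHCB2.3 (AT3G27690) had 321, 75.5 and 104 CPM in flg22+Ed leaves, 520, 243 and 385 CPM in flg22 leaves, 784, 1308 and 1402 CPM in Ed leaves, and 2508, 2519 and 2075 CPM in Mock leaves at 300 min. Neither the flg22+Ed nor the flg22 nor the Ed libraries overlapped the Mock libraries, and its change in flg22+Ed leaves, -3.82 ± 0.45 (adjusted p = 1.3e-09), was the largest of the 48. LHCB2.2 (AT2G05070) had 708, 383 and 444 CPM in flg22+Ed leaves, 1425, 754 and 1039 CPM in flg22 leaves, 1632, 2277 and 2637 CPM in Ed leaves, and 3257, 3385 and 3860 CPM in Mock leaves, and changed by -2.77 ± 0.25 (adjusted p = 3.05e-12). Here too the Mock libraries were above all others. LHCB2.1 (AT2G05100) fell by 2.21 on the log2 scale. LHCB3 (AT5G54270) fell by 2.2, with 2975, 1914 and 1808 CPM in flg22+Ed leaves, 4762, 3341 and 4433 CPM in flg22 leaves, 5988, 7272 and 9260 CPM in Ed leaves and 9861, 8081 and 12881 CPM in Mock leaves, so that Ed and Mock libraries overlapped and the other groups did not overlap Mock.

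The 250 bases upstream of the annotated start are shown for the 3 neighbouring LHCB1 genes and the 3 LHCB2 genes, since these near-identical proteins are made from genes that fell by different amounts. Sequences and positions are from the RefSeq genome and annotation of TAIR10.1, each read 5′ to 3′ on the strand of its gene: LHCB1.1 at chr1:10475970-10476219, minus strand, LHCB1.2 at chr1:10473503-10473752, minus strand, LHCB1.3 at chr1:10477635-10477884, plus strand, LHCB2.1 at chr2:1824481-1824730, minus strand, LHCB2.2 at chr2:1800473-1800722, minus strand, and LHCB2.3 at chr3:10255656-10255905, plus strand. Capitals mark matches on either strand to 5 motifs: the G-box CACGTG, the I-box GATAAG, the sequence CCAATC associated with GLK transcription factors, the sequence AAAAATCT bound by the clock factor CCA1, and the evening element AAAATATCT.
LHCB1.1: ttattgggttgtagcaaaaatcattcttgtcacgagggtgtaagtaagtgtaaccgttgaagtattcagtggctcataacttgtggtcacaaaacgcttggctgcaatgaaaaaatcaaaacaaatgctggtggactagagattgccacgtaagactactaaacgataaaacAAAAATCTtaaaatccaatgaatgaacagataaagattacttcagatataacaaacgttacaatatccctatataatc
LHCB1.2: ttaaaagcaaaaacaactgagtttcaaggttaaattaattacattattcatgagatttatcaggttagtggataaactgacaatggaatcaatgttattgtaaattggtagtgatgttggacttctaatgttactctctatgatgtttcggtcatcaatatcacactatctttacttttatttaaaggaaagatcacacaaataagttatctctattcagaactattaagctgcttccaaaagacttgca
LHCB1.3: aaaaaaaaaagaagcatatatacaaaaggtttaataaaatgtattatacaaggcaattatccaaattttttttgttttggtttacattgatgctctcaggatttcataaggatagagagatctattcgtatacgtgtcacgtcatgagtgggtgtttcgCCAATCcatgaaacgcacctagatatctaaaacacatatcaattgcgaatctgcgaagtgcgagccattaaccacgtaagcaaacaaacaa
LHCB2.1: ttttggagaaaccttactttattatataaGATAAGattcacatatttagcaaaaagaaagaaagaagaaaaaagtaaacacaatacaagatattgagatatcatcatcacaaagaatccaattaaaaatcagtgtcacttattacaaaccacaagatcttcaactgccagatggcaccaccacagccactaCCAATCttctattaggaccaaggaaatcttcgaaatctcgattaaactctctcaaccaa
LHCB2.2: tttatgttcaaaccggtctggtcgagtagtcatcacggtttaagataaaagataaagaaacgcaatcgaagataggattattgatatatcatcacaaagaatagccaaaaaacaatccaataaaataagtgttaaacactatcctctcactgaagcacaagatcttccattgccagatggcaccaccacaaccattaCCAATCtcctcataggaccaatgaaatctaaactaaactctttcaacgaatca
LHCB2.3: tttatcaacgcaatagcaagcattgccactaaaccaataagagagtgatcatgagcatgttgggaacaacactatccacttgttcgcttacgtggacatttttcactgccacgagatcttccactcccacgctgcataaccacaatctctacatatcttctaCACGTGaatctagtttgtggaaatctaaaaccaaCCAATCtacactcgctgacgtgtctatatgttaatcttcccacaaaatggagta
CCAATC was found in LHCB1.3 and in the 3 LHCB2 windows. The G-box was found in LHCB2.3, the I-box in LHCB2.1, and AAAAATCT in LHCB1.1. None of the 5 motifs was found in the LHCB1.2 window, which says only that these letters are absent from it.

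Over the upstream windows of all 48 genes, CCAATC was found in 27.1%, against 10.2% of 27443 protein-coding genes with a window of the same length. It was in 10 of the 20 antenna genes and 3 of the other 28. Many of the 48 windows overlap a neighbouring gene, those of LHCB4.2, LHCB5, LHCB6, LHCA1 and PETE2 among them. The I-box was found in 25% of the 48 windows against 12.3% of all windows, and the G-box in 16.7% against 6.49%. AAAAATCT was found in 10.4% against 6.69%, and the evening element in 2.08% against 2.36%. The W-box, searched as TTGACC or TTGACT and bound by WRKY factors, was found in 16.7% against 28.4%. All motifs were searched on both strands, no motif contains another, and the matches describe letters and not sites bound in these leaves.

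The minor antenna proteins LHCB4, LHCB5 and LHCB6 are monomers that connect the trimers to the photosystem II core, and all 5 of their genes were called lower. LHCB6 (AT1G15820) had 2112, 1373 and 1289 CPM in flg22+Ed leaves, 3875, 2646 and 3102 CPM in flg22 leaves, 4705, 6236 and 6416 CPM in Ed leaves, and 7612, 6301 and 8762 CPM in Mock leaves, a change of -2.25 ± 0.20 (adjusted p = 5.31e-12) with no overlap between flg22+Ed and Mock. LHCB5 (AT4G10340) changed by -2.34 ± 0.22 (adjusted p = 1.08e-11) and LHCB4.2 (AT3G08940) by -2.54 ± 0.23 (adjusted p = 4.67e-12), against -1.60 ± 0.19 (adjusted p = 1.69e-09) for LHCB4.1 (AT5G01530). LHCB4.3 (AT2G40100) was counted near the floor of detection. It had 4.23, 3.48 and 4.3 CPM in flg22+Ed leaves and 8.38, 16.8 and 7.16 CPM in Mock leaves, and its call (-1.43 ± 0.54, adjusted p = 0.0203) was lost without experiment 2's library labelled Mock 300 min (-0.95, adjusted p = 0.185), without all 4 libraries (-0.94, adjusted p = 0.19) and without the flg22+Ed library of experiment 2 (adjusted p = 0.055).

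LHCA1 to LHCA4 form the antenna belt of photosystem I, while LHCA5 and LHCA6 attach photosystem I to the chloroplast NADH dehydrogenase-like complex. LHCA6 (AT1G19150) had 22.5, 7.74 and 10.2 CPM in flg22+Ed leaves, 49.5, 26.6 and 36.9 CPM in flg22 leaves, 43.0, 66.7 and 75.3 CPM in Ed leaves, and 132, 198 and 140 CPM in Mock leaves. All 3 treatments lay wholly below Mock, and the change in flg22+Ed leaves was -3.51 ± 0.37 (adjusted p = 1.3e-10). LHCA4 (AT3G47470) had 3106, 2278 and 2179 CPM in flg22+Ed leaves, 5607, 4135 and 4423 CPM in flg22 leaves, 6062, 7846 and 7890 CPM in Ed leaves, and 9825, 8448 and 10259 CPM in Mock leaves, and changed by -1.92 ± 0.17 (adjusted p = 5.38e-12). Its libraries were also below Mock in all 3 treatments. LHCA1 (AT3G54890), LHCA2 (AT3G61470), LHCA3 (AT1G61520) and LHCA5 (AT1G45474) fell by 2.22, 1.76, 1.89 and 2.12 on the log2 scale.

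The 12 genes of photosystem I subunits were called lower with a median of -1.64, the smallest median of the 7 groups of genes. PSAD1 (AT4G02770) and PSAD2 (AT1G03130) encode the stromal subunit to which ferredoxin docks. PSAD1 had 1946, 1629 and 1137 CPM in flg22+Ed leaves, 3989, 2691 and 2891 CPM in flg22 leaves, 3856, 4656 and 4939 CPM in Ed leaves, and 5806, 4290 and 5857 CPM in Mock leaves. PSAD2 had 600, 524 and 294 CPM in flg22+Ed leaves, 1469, 1036 and 920 CPM in flg22 leaves, 1287, 1734 and 1476 CPM in Ed leaves, and 2398, 1834 and 2027 CPM in Mock leaves. For both genes the flg22+Ed libraries were below all others, and the changes were -1.76 ± 0.20 (adjusted p = 5.94e-10) for PSAD1 and -2.14 ± 0.25 (adjusted p = 1.41e-09) for PSAD2. PSAO (AT1G08380), which with PSAH and PSAL forms the docking side for the mobile antenna, had 3252, 2310 and 2136 CPM in flg22+Ed leaves, 4813, 3979 and 4019 CPM in flg22 leaves, 6308, 7545 and 7138 CPM in Ed leaves, and 9380, 5959 and 9256 CPM in Mock leaves. Each flg22+Ed library was below each Mock library, with a change of -1.68 ± 0.21 (adjusted p = 4.18e-09).

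The smallest falls of the 48 genes were also found among photosystem I genes. PSAH1 (AT3G16140) had 776, 545 and 551 CPM in flg22+Ed leaves, 889, 732 and 764 CPM in flg22 leaves, 1255, 1350 and 1266 CPM in Ed leaves, and 1807, 1256 and 1463 CPM in Mock leaves, and changed by -1.27 ± 0.18 (adjusted p = 1.02e-07). Its copy PSAH2 (AT1G52230) changed by -2.35 ± 0.20 (adjusted p = 1.69e-12). PSAE2 (AT2G20260), a stromal subunit beside PSAD, had 713, 525 and 457 CPM in flg22+Ed leaves, 1002, 763 and 798 CPM in flg22 leaves, 1183, 1403 and 1298 CPM in Ed leaves, and 1565, 886 and 1648 CPM in Mock leaves, with a change of -1.27 ± 0.22 (adjusted p = 4.45e-06). For both, flg22+Ed and Mock libraries did not overlap. The plastocyanin-binding subunits PSAF (AT1G31330) and PSAN (AT5G64040) changed by -1.52 ± 0.34 (adjusted p = 0.000156) and -2.40 ± 0.34 (adjusted p = 1.04e-07). PSAE1 (AT4G28750) fell by 1.52, and the antenna-binding PSAG (AT1G55670), PSAK (AT1G30380) and the docking subunit PSAL (AT4G12800) fell by 1.39, 1.63 and 1.66 on the log2 scale.

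The 10 photosystem II genes were called lower with a median of -2.05, among them those of the lumenal proteins that shield the oxygen-evolving cluster. PSBO1 (AT5G66570) and PSBO2 (AT3G50820) changed by -1.94 ± 0.20 (adjusted p = 7.32e-11) and -2.66 ± 0.25 (adjusted p = 8.45e-12). PSBP1 (AT1G06680), PSBQ1 (AT4G21280) and PSBQ2 (AT4G05180) fell by 2.23, 2.25 and 2.1 on the log2 scale. PSBR (AT1G79040), needed for stable binding of these proteins, had 5086, 3499 and 3537 CPM in flg22+Ed leaves, 6331, 5218 and 5444 CPM in flg22 leaves, 8415, 9398 and 8990 CPM in Ed leaves, and 10939, 8229 and 10666 CPM in Mock leaves, with no overlap between flg22+Ed and Mock. Its change was -1.30 ± 0.20 (adjusted p = 3.95e-07), the next smallest after PSAH1 and PSAE2. PSBS (AT1G44575), the sensor of lumenal acidity in photoprotective quenching, had 387, 357 and 297 CPM in flg22+Ed leaves and 1125, 1878 and 1137 CPM in Mock leaves, a change of -1.99 ± 0.23 (adjusted p = 1.12e-09). The small membrane subunits PSBW (AT2G30570), PSBX (AT2G06520) and PSBY (AT1G67740) fell by 1.86, 2.01 and 2.53 on the log2 scale.

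The electron carriers between and after the photosystems were lower as well. PETE2 (AT1G20340), 1 of the 2 plastocyanin genes, had 1821, 1736 and 1135 CPM in flg22+Ed leaves, 4267, 2733 and 2623 CPM in flg22 leaves, 4689, 5142 and 5805 CPM in Ed leaves, and 6060, 7369 and 7685 CPM in Mock leaves, and changed by -2.17 ± 0.20 (adjusted p = 5.51e-12). All 3 treatments were below Mock in every library. PETE1 (AT1G76100) fell by 2.41, the leaf ferredoxin gene FD2 (AT1G60950) by 2.2, LFNR1 (AT5G66190) of ferredoxin-NADP reductase by 1.44, and PETC (AT4G03280) of the Rieske protein by 1.41 on the log2 scale. LFNR2 (AT1G20020) had 367, 360 and 225 CPM in flg22+Ed leaves, 817, 641 and 532 CPM in flg22 leaves, 702, 861 and 771 CPM in Ed leaves, and 1363, 177 and 1157 CPM in Mock leaves, the 177 CPM being the library with clock genes against its label, which lay below every flg22+Ed value. Its change was -1.50 ± 0.45 (adjusted p = 0.00398), -1.98 (adjusted p = 2.46e-07) without the 4 libraries, and -1.07 (adjusted p = 0.055) without the Mock library of experiment 1.

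**Figure D2:**
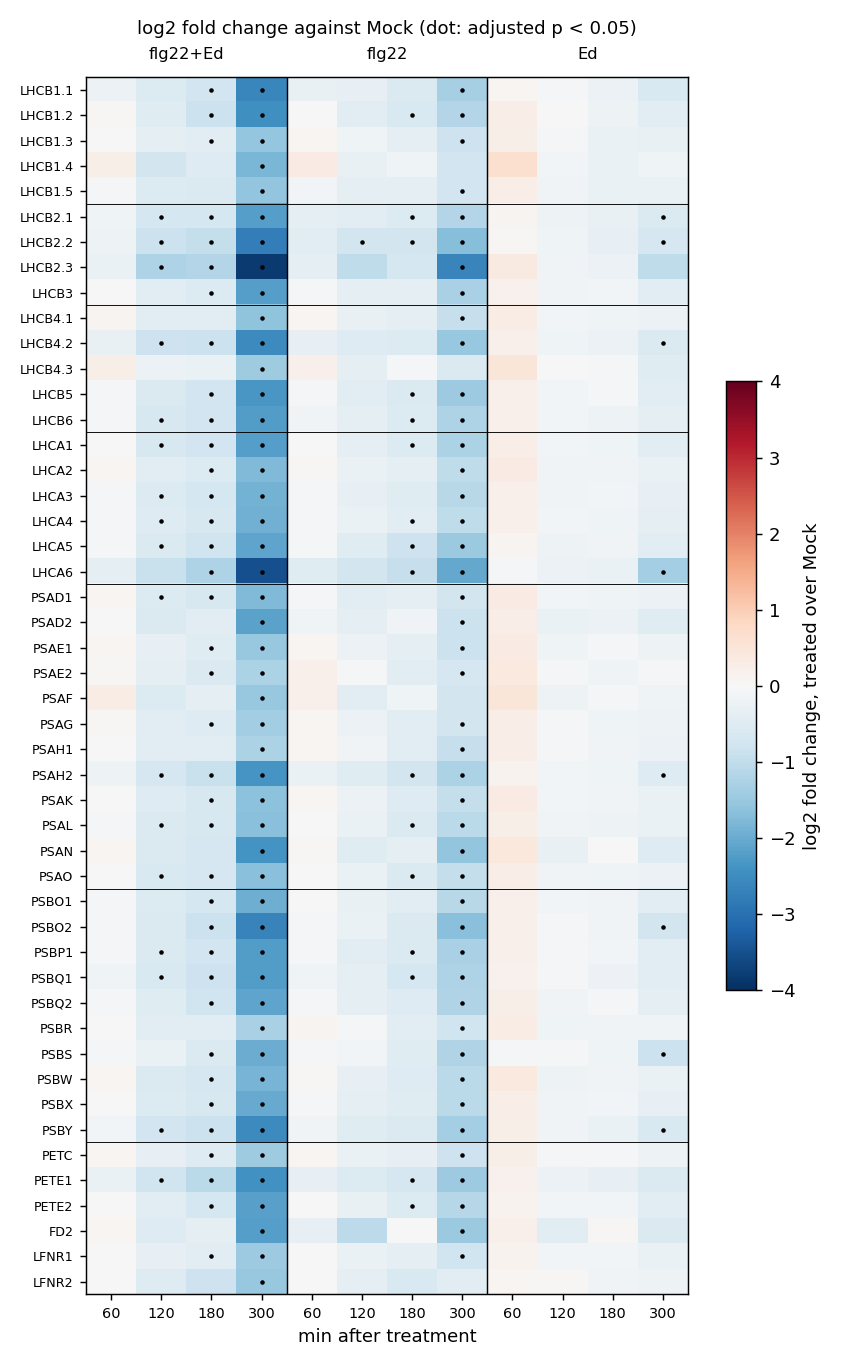
Log2 fold change against Mock of each of the 48 genes (rows, grouped by protein) at 60, 120, 180 and 300 min (columns) in flg22+Ed, flg22 and Ed leaves, with blue for lower and red for higher than Mock and a dot for an adjusted p under 0.05 (n = 3 libraries a group). Dots fill all 48 rows of flg22+Ed at 300 min, 44 rows of flg22 at 300 min and 8 rows of Ed at 300 min.

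In flg22+Ed leaves no decline of a single gene was called at 60 min, and the decline deepened between 180 and 300 min. The summed share above, which uses unscaled library totals, already lay below Mock at 60 min without overlap, unlike the scaled values here. At 60 min edgeR called 0 of the 48 genes, against 2.08% of all genes called lower, with a median of -0.02, 0 genes at an unadjusted p under 0.05, and 0 genes by DESeq2 or limma-voom. At 120 min 17 genes were called lower, against 4.98% of all genes, with a median of -0.55. At 180 min 37 were called, against 14.5% of all genes, with a median of -0.67, and the 17 genes called at 120 min were all among them. Without the 4 libraries the counts were 25 and 41, against 9.26 and 18.5% of all genes. The count at 120 min depended on single libraries, since it was 0, 4 and 33 without the flg22+Ed library of experiment 3, 2 and 1, and 2 and 6 without the Mock library of experiment 1 and 2. The count at 180 min was 21 without the flg22+Ed library of experiment 2 or of experiment 3 and 22 without the Mock library of experiment 3. For fits without single libraries, here and below, no share of all genes called is given.

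The difference between the 300 and 180 min effects of flg22+Ed was tested directly, a comparison added after the data were seen. It was called for 40 of the 48 genes, all with a larger fall at 300 min, against 4.96% of all genes, with a median of -1.31. In flg22 leaves the same difference was called for 0 genes by edgeR, against 0.0119% of all genes called lower at the adjusted threshold. The median was -0.59, and 27 of the 48 genes reached an unadjusted p under 0.05. No share of all genes is given for that unadjusted threshold, and no other tool was run for this difference. LHCB2.3 showed the course in each library: it stood at 2321, 2250 and 1684 CPM at 60 min, 1313, 544 and 419 CPM at 120 min, 1224, 416 and 531 CPM at 180 min and 321, 75.5 and 104 CPM at 300 min in flg22+Ed leaves. Over the same times Mock leaves had 2560, 2652 and 2298 CPM, 2456, 1773 and 1081 CPM, 2064, 1298 and 1480 CPM, and 2508, 2519 and 2075 CPM. The treated libraries overlapped Mock at 60 and 120 min, did not overlap it at 180 min, and were far below it at 300 min.

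**Figure D3:**
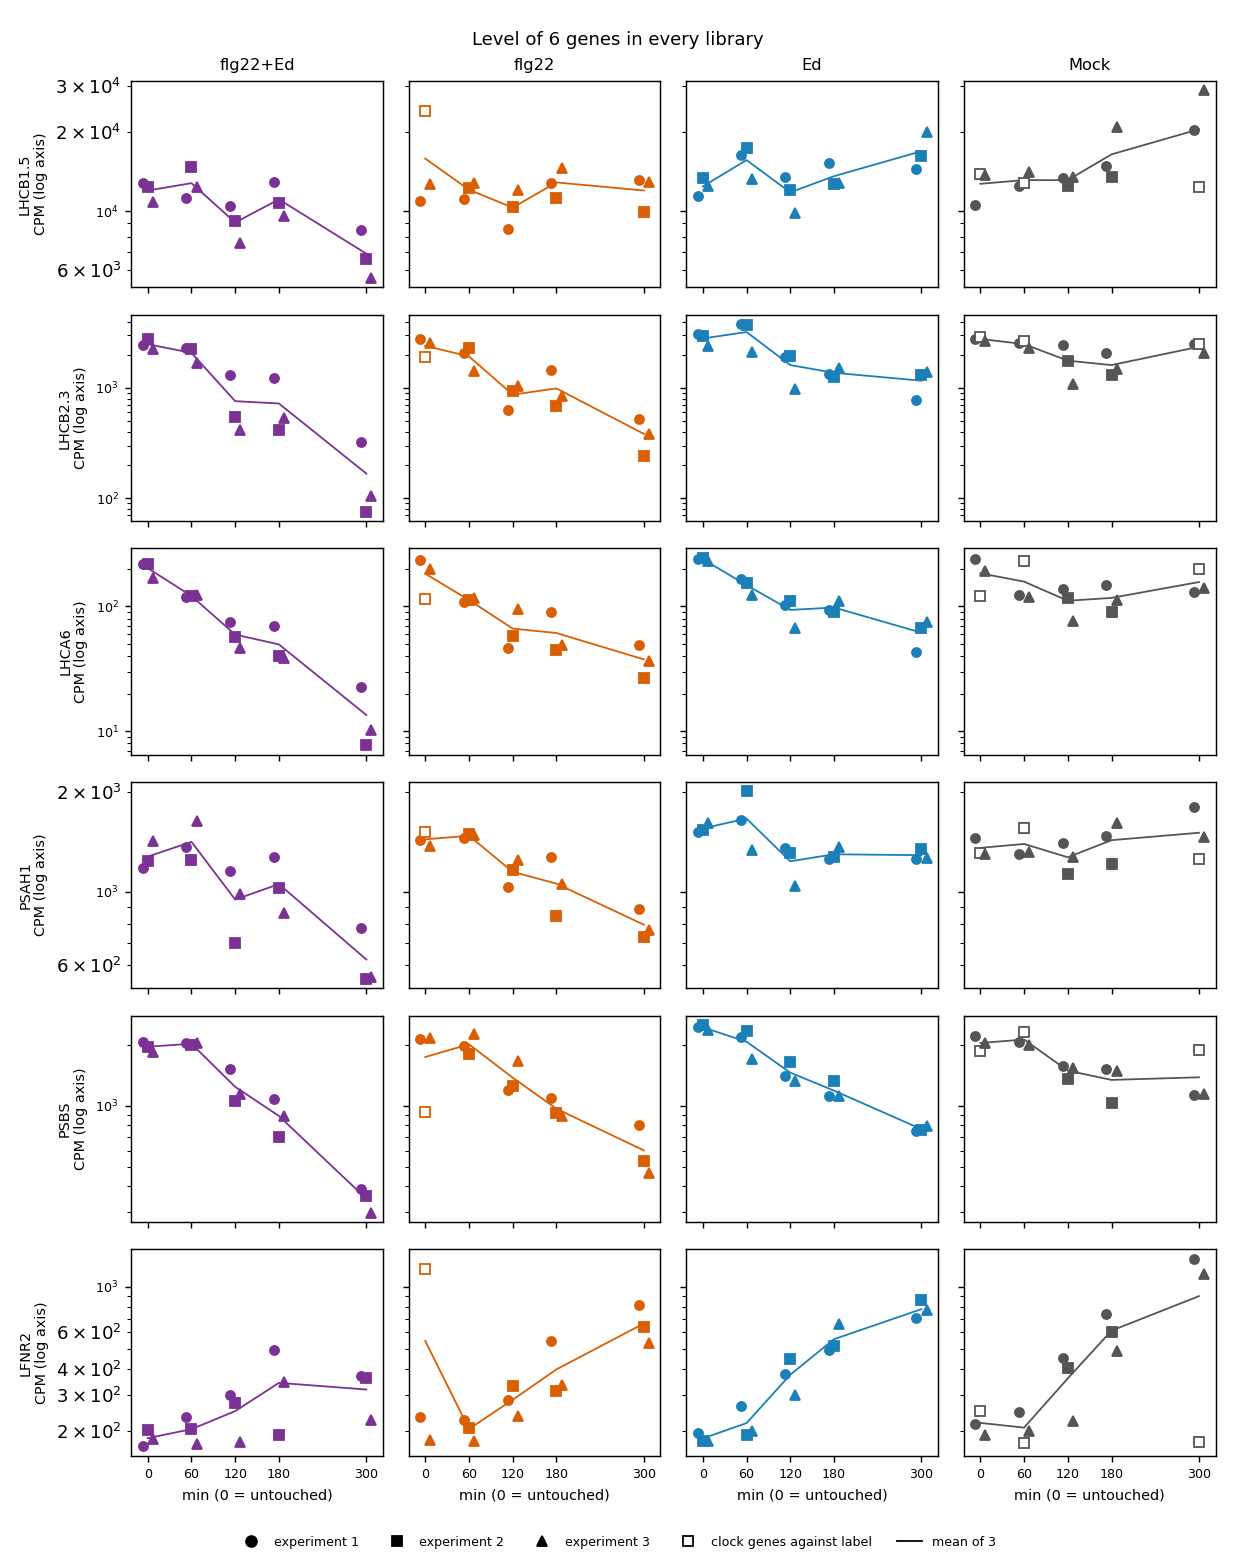
CPM on a log axis of LHCB1.5, LHCB2.3, LHCA6, PSAH1, PSBS and LFNR2 (rows) against time in min (0 min is untouched) in flg22+Ed, flg22, Ed and Mock leaves (columns). Symbols mark the 3 experiments, open squares the 4 libraries whose clock genes went against the label, and lines the mean; LFNR2 stood at 1363 and 1157 CPM in 2 Mock libraries at 300 min and at 177 CPM in the open-square one.

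Comparing flg22 with Mock leaves, in which the peptide and the ethanol listed for Mock alone cannot be told apart, showed lower levels as well. At 60 min 0 genes were called by edgeR, DESeq2 or limma-voom, with 0 at an unadjusted p under 0.05, against 3.39% of all genes called lower. At 120 min 1 gene, LHCB2.2, was called lower (-0.73 ± 0.23, adjusted p = 0.0321), against 2.8% of all genes. An unadjusted p under 0.05 was reached by 14 genes, a threshold for which no share of all genes is given. Without the Mock or the flg22 library of experiment 1 or 2 the count of called genes was 0, and without that of experiment 3 it was 2. At 180 min 16 genes were called lower, against 8.17% of all genes, with a median of -0.50, and 14 were called without the 4 libraries, against 11.2% of all genes. That count was 1 and 3 without the flg22 library of experiment 2 and 3, and 3 and 2 without the Mock library of experiment 1 and 3.

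At 300 min 44 of the 48 genes were called lower in flg22 leaves, against 20.9% of all genes, with a median of -1.11 (2.15-fold lower) and a range of -2.63 (LHCB2.3) to -0.44 (LFNR2). Without the 4 libraries 47 were called, against 19.5% of all genes. The 4 genes not called were LHCB1.4 (-0.76 ± 0.32, adjusted p = 0.0512), LHCB4.3 (-0.57 ± 0.50, adjusted p = 0.383), PSAF (-0.72 ± 0.33, adjusted p = 0.076) and LFNR2 (-0.44 ± 0.44, adjusted p = 0.459), and LHCB1.4, PSAF and LFNR2 were called without the 4 libraries. With a block for experiment PSAF was called too (-0.73, adjusted p = 0.0104). 3 of the calls were lost when a single library was left out. That of LHCB1.5 was lost without the flg22 library of experiment 2 (adjusted p = 0.0508) or the Mock library of experiment 3 (adjusted p = 0.146). That of PSAE2 was lost without the Mock library of experiment 1 or 3 or the flg22 library of experiment 2 or 3 (adjusted p between 0.0502 and 0.0877). That of FD2 was lost without the Mock library of experiment 1 or the flg22 library of experiment 2 or 3 (adjusted p between 0.0562 and 0.114). The largest falls were again LHCB2.3 (-2.63 ± 0.42, adjusted p = 3.42e-06) and LHCA6 (-2.06 ± 0.34, adjusted p = 6.7e-06), followed by LHCB2.2 (-1.71 ± 0.24, adjusted p = 2.17e-07).

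Comparing Ed with Mock leaves, in which estradiol and the effector it induces cannot be told apart, gave 0 called genes at 60, 120 and 180 min by edgeR, DESeq2 and limma-voom, with 0 at an unadjusted p under 0.05 at each time. Over all genes 0%, 0% and 0.00597% were called lower at these times. At 300 min 8 genes were called lower, against 9.46% of all genes, with a median of -0.40. They were LHCA6 (-1.35 ± 0.34, adjusted p = 0.00229), PSBS (-0.85 ± 0.22, adjusted p = 0.00373), PSBO2, LHCB2.2, PSBY, LHCB4.2, LHCB2.1 and PSAH2, the last 6 with changes of -0.72 to -0.52 and adjusted p between 0.0193 and 0.0480. PSBS had 753, 754 and 790 CPM in Ed leaves and 1125, 1878 and 1137 CPM in Mock leaves, without overlap, and was not called without experiment 2's library labelled Mock 300 min (-0.56, adjusted p = 0.096).

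The Ed calls at 300 min shifted with the libraries used. Without the 4 libraries 8 genes were called, against 7.98% of all genes, of which 5 were shared with the 8 above, and the median was -0.52. The count was 2 without the Ed library of experiment 1 and without experiment 2's library labelled Mock 300 min, and 4 without the Mock library of experiment 3. LHCA6 was the 1 gene of the 8 whose call was kept in every fit that left out a library. With a block for experiment LHCB2.3 was called as well (-0.96, adjusted p = 0.0369, against -1.02 and adjusted p = 0.0564 without the block).

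Both elicitors were also set against each alone. Ethanol is listed for flg22+Ed and Ed but not for flg22 leaves, so in comparisons with flg22 leaves its part cannot be told apart. At 300 min flg22+Ed leaves were lower than flg22 leaves for 40 of the 48 genes, against 7.21% of all genes, with a median of -0.89 (1.85-fold lower). They were lower than Ed leaves for 47 genes, against 18.8% of all genes, with a median of -1.63 (3.09-fold lower). The count against flg22 was 42 without the 4 libraries (against 11.9% of all genes), 21 without the flg22 library of experiment 1 and 23 without the flg22+Ed library of experiment 3. At 180 min 0 genes differed between flg22+Ed and flg22 leaves by edgeR, DESeq2 or limma-voom, with 0 at an unadjusted p under 0.05, against 0% of all genes called lower. At that time 17 were lower in flg22+Ed than in Ed leaves, against 5.66% of all genes, a count that was 0 without the flg22+Ed library of experiment 2 or the Ed library of experiment 3 and 1 without the flg22+Ed library of experiment 3. It was 6 and 9 without the Ed library of experiment 2 and 1, and 30 without the flg22+Ed library of experiment 1. Between the single elicitors at 300 min, a comparison added after the data were seen, 37 genes were lower in flg22 than in Ed leaves, against 9.91% of all genes, with a median of -0.72.

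Whether both elicitors together gave more than the sum of their separate effects was tested as an interaction on the log2 scale. That is the flg22+Ed effect less the flg22 and Ed effects. Its flg22 term compares leaves without listed ethanol with Mock leaves, so ethanol cannot be told apart in it. At 300 min edgeR called 0 of the 48 genes, against 1.43% of all genes called lower, and DESeq2 and limma-voom also called 0. Of the 48 estimates 47 were below 0, with a median of -0.46 (-0.35 without the 4 libraries) against -0.12 over all genes. An unadjusted p under 0.05 was reached by 9 genes. No share of all genes is given for either count. The 48 estimates come from the same libraries and are not independent, so no conclusion is drawn from their signs. The 3 smallest adjusted p were those of PSAD1 (-0.78 ± 0.27, adjusted p = 0.166), LHCB1.2 (-0.87 ± 0.32, adjusted p = 0.217) and PSAD2 (-0.79 ± 0.34, adjusted p = 0.32). LHCB2.3 and LHCA6, which fell most, had estimates of -0.17 ± 0.56 and -0.11 ± 0.47. At 180 min 0 genes were called by edgeR, DESeq2 or limma-voom, with 0 at an unadjusted p under 0.05, against 0.00597% of all genes, and the median was -0.03.

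Mock leaves were set against the 12 untouched libraries to measure change without an elicitor, in which infiltration and time of day cannot be told apart. The calls were few and went in both directions. At 60 min 0 genes were called by edgeR, with 0 at an unadjusted p under 0.05 and 0 by DESeq2 or limma-voom, against 0.728% of all genes called lower and 8.73% higher, and without the 4 libraries 2 were lower, against 14.5% of all genes lower and 20.2% higher. At 120 min LHCA6 (-0.85 ± 0.28, adjusted p = 0.0235) and LHCB1.1 (-0.59 ± 0.20, adjusted p = 0.0284) were lower, against 6.92% of all genes lower and 13.7% higher. At 180 min LHCA6 and PSBS were lower, against 5.58% of all genes, and LFNR2 was higher, against 8.75% of all genes. At 300 min LFNR2 (1.83 ± 0.31), LHCB1.4 (0.93 ± 0.23) and LHCB1.5 (0.64 ± 0.17) were higher, against 4.49% of all genes higher and 0.453% lower.

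These comparisons depended on the 4 libraries, of which 2 are untouched and 2 are Mock libraries of 60 and 300 min. Without them 5 genes were lower and 1 higher at 120 min, against 14.3% of all genes lower and 21.2% higher. At 180 min 3 were lower and 4 higher, against 11.6 and 16.6%, and at 300 min 2 were lower and 11 higher, against 13.4 and 15.9% of all genes. LFNR2 varied widely: it had 248, 175 and 200 CPM at 60 min, 450, 406 and 222 CPM at 120 min, 740, 606 and 489 CPM at 180 min, and 1363, 177 and 1157 CPM at 300 min in Mock leaves, against a lowest, median and highest value of 169, 193 and 1222 CPM in the untouched libraries, the highest being experiment 2's library labelled flg22 0 min. With the 4 libraries left out it was 2.64 log2 units higher in Mock leaves at 300 min. PSBS went the other way, with 1125, 1878 and 1137 CPM in Mock leaves at 300 min and a lowest, median and highest value of 932, 2094 and 2497 CPM in the untouched libraries, and was called lower without the 4 libraries (-0.99). Leaving out 1 Mock library or the untouched libraries of 1 experiment moved the count at 300 min between 0 (without the Mock library of experiment 1) and 10 (without experiment 2's library labelled Mock 300 min), and was 1, 1, 5 and 1 without the Mock library of experiment 3 and without the untouched libraries of experiment 1, 2 and 3. At 120 min those of the untouched libraries gave 0, 5 and 1 and those of the Mock libraries of experiment 1, 2 and 3 gave 1, 0 and 0. At 180 min the count was 1 without the Mock library of experiment 2 or 3 or the untouched libraries of experiment 1 or 3.

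Several proteins are made from more than 1 gene, and the ratio between copies within a library does not depend on library scaling. Of 10 pairs of copies, 6 had a lower ratio in every flg22+Ed library than in every Mock library at 300 min. With 3 against 3 libraries, separation in either direction has a probability of 0.1 where nothing differs. The LHCB2.3 and LHCB2.2 pairs share LHCB2.1, and pairs of LHCB1 copies were not among the 10. The log2 ratio of LHCB2.3 to LHCB2.1 lay between -3.37 and -1.88 in flg22+Ed leaves and between -1.17 and -0.65 in Mock leaves, a difference in means of -1.88 (3.68-fold). That of PSAH2 to PSAH1 lay between -0.40 and -0.31 in flg22+Ed leaves and between 0.47 and 0.85 in Mock leaves, a difference of -1.09 (2.13-fold), so that PSAH1 had more counts than PSAH2 in flg22+Ed leaves and fewer in Mock leaves. The differences were -1.0 for LHCB4.2 to LHCB4.1, -0.74 for PSBO2 to PSBO1, -0.59 for LHCB2.2 to LHCB2.1 and -0.42 for PSAD2 to PSAD1.

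For each of these 6 pairs the exact two-sided permutation test gave p = 0.1, the smallest that 3 against 3 libraries allow, and an adjusted value of 0.167 over the 10 pairs. The ratios of PSAE2 to PSAE1, PSBQ2 to PSBQ1, PETE2 to PETE1 and LFNR2 to LFNR1 overlapped between flg22+Ed and Mock leaves, with exact p between 0.2 and 0.9. In flg22 leaves 4 pairs had lower ratios without overlap (LHCB2.3 to LHCB2.1, LHCB4.2 to LHCB4.1, LHCB2.2 to LHCB2.1 and PSBO2 to PSBO1), with differences of -1.51, -0.63, -0.57 and -0.54, and PETE2 to PETE1 had a higher one (0.30). In Ed leaves 2 pairs had lower ratios without overlap, LHCB4.2 to LHCB4.1 (-0.39) and LHCB2.2 to LHCB2.1 (-0.12). Each pair without overlap had a permutation p of 0.1, with adjusted values of 0.2 in flg22 leaves and 0.333 in Ed leaves. The last 200 bases of the transcripts, near which these tags lie, were 44.8 to 54.5% identical between the copies of a protein, LHCB1 included. As the use of strand in counting is not given in the sources used here, counts of the 17 members that overlap a gene on the opposite strand may hold tags of that gene; LHCB2.3, PSAH1, PSAH2 and LHCB4.2 are among them. PSAD2 and PSBP1 also overlap a gene on the same strand, whose tags the use of strand would not separate.

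**Figure D4:**
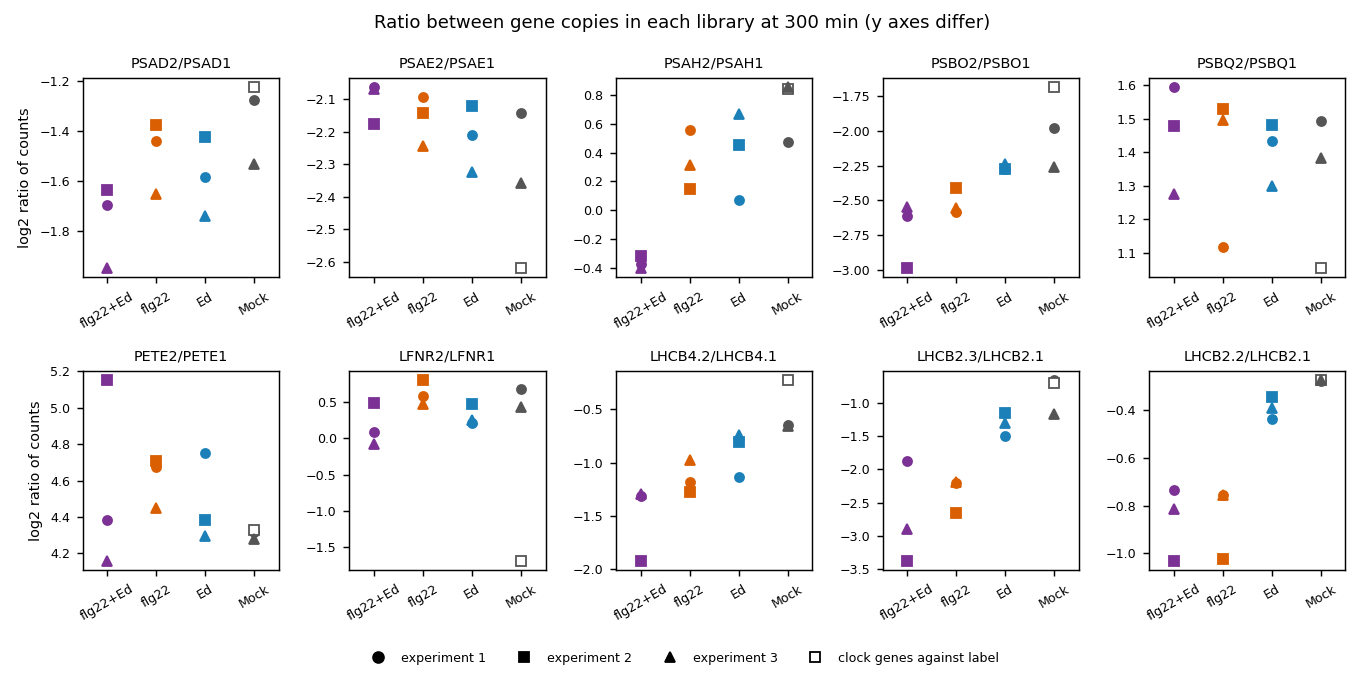
Log2 ratio of the counts of 2 gene copies in each library at 300 min, in 10 panels with separate y axes, for flg22+Ed, flg22, Ed and Mock leaves from left to right. Symbols mark the 3 experiments and the open square experiment 2's library labelled Mock 300 min; the PSAH2 to PSAH1 ratio lies between -0.40 and -0.31 in flg22+Ed leaves and between 0.47 and 0.85 in Mock leaves.

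Other nuclear genes of chloroplast function moved in the same direction in flg22+Ed leaves at 300 min, from lists written with earlier results of these data known. Of 18 other thylakoid genes 17 were called lower with a median of -1.86, from PSB27 (-2.86 ± 0.28, adjusted p = 1.76e-11), a photosystem II repair factor, to PGRL1B (-1.24 ± 0.20, adjusted p = 7.05e-07), of cyclic electron flow. All 12 genes of photosystem assembly and state transitions were lower with a median of -1.85, from HCF101 (-2.69 ± 0.24, adjusted p = 3.35e-12), an iron-sulfur scaffold for photosystem I, to TAP38 (-1.11 ± 0.28, adjusted p = 0.000841), the phosphatase of the mobile antenna. Of 7 tested stress-related relatives of the antenna proteins 6 were lower, from LIL3.1 (-2.90 ± 0.30, adjusted p = 8.49e-11) to SEP1 (-1.55 ± 0.21, adjusted p = 2.27e-08). The seventh, ELIP1, stood at -1.69 ± 1.25 (adjusted p = 0.247) and at 3.09 without the 4 libraries (adjusted p = 0.213). These counts stand beside the 30.5% of all genes called lower.

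Of 23 genes of chlorophyll synthesis 19 were lower and 1 was higher, with a median of -2.16, from CHLH (-3.44 ± 0.53, adjusted p = 4.55e-07), a magnesium chelatase subunit, to GSA1 (1.47 ± 0.17, adjusted p = 6.15e-10), an enzyme of the first steps of tetrapyrrole synthesis. Of 19 Calvin cycle genes 18 were lower with a median of -2.42, from FBA1 (-3.93 ± 0.42, adjusted p = 1.78e-10; -2.92 without the 4 libraries), a chloroplast aldolase, to RPE (-1.28 ± 0.27, adjusted p = 6.65e-05). Of 6 tested genes of chlorophyll breakdown 3 were lower, against 30.5% of all genes, from NOL (-1.81 ± 0.23, adjusted p = 9.26e-09) to PAO (-0.87 ± 0.22, adjusted p = 0.000873). The 13 chloroplast-encoded genes of the same complexes had changes of -0.66 to 0.19 with a median of -0.09, none of them past the threshold (smallest adjusted p = 0.317, edgeR). These transcripts mostly lack long poly(A) tails, and tests of their difference from the nuclear genes were not run.

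Regulators of these genes were lower too. GLK1 (AT2G20570) and GLK2 (AT5G44190), transcription factors that activate antenna and chlorophyll genes, changed by -1.63 ± 0.26 (adjusted p = 1.21e-06) and -2.40 ± 0.29 (adjusted p = 4.08e-09). GLK1 had 88.0, 69.3 and 55.2 CPM in flg22+Ed leaves, 110, 111 and 87.2 CPM in flg22 leaves, 118, 170 and 140 CPM in Ed leaves and 225, 235 and 197 CPM in Mock leaves, with all treatments below Mock. GNC (AT5G56860), a GATA factor that promotes chlorophyll synthesis, changed by -3.88 ± 0.39 (adjusted p = 5.67e-11). The sigma factors SIG6, SIG1 and SIG2, which direct the chloroplast RNA polymerase, changed by -3.16, -3.05 and -2.08, and the light-signalling factors PIF4, PIF1, PIF5 and PIF3 by -2.50, -1.95, -1.22 and -0.80.

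GUN1, of chloroplast-to-nucleus signalling, changed by -0.87 ± 0.20 (adjusted p = 0.000205). In all 13 of 15 regulators were called lower with a median of -1.95, and 12 without the 4 libraries. SIG5 (-2.69 ± 0.61, adjusted p = 0.000231) and HY5 (-1.78 ± 0.59, adjusted p = 0.00875) were called with all libraries, and without the 4 libraries they stood at -0.82 (adjusted p = 0.0813) and -0.31 (adjusted p = 0.669). BBX21 stood at -0.57 ± 0.29 (adjusted p = 0.0872) and was called without the 4 libraries (-0.77, adjusted p = 0.00757). GNL, counted near the floor, had 0.470, 1.94 and 1.35 CPM in flg22+Ed leaves and 0, 8.56 and 0.512 CPM in Mock leaves, and was not called (adjusted p = 0.133). In flg22 leaves 10 of 15 were lower, against 20.9% of all genes, with -1.09 ± 0.26 for GLK1 and -1.66 ± 0.29 for GLK2. In Ed leaves 8 were lower, against 9.46% of all genes, or 4 without the 4 libraries, against 7.98%.

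**Figure D5:**
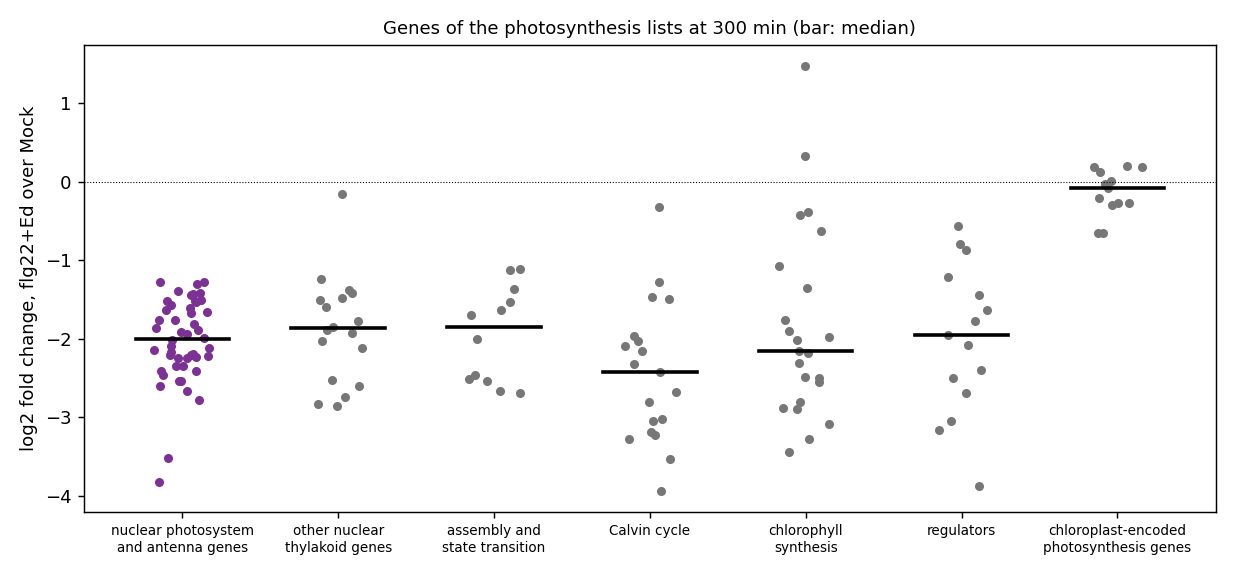
Log2 fold change of single genes in flg22+Ed over Mock leaves at 300 min (n = 3 libraries a group) for the 48 genes and 6 other lists; each point is a gene and each bar the median. Medians lie at -2.0 for the 48 genes, -1.86, -1.85, -2.42, -2.16 and -1.95 for the next 5 lists and -0.09 for the chloroplast-encoded genes.

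Markers of the cell types in a leaf were also read, and outside mesophyll few of them were called. The 4 mesophyll markers RBCS1A, RBCS3B, RCA and CA1 were all called lower in flg22+Ed leaves at 300 min, with a median of -2.11; they encode photosynthetic enzymes themselves. Of 5 guard cell markers 1 was lower, of 5 tested epidermis markers 3 and of 5 phloem markers 1, with medians of -0.92, -0.79 and -0.07, against 30.5% of all genes called lower. The phloem markers summed to 474 to 572 CPM in flg22+Ed leaves and 591 to 661 CPM in Mock leaves, and the epidermis markers to 326 to 420 CPM in flg22+Ed leaves and 605 to 784 CPM in Mock leaves. The guard cell markers summed to 21.6 to 27.8 CPM in flg22+Ed leaves and 31.7 to 58.9 CPM in Mock leaves. The part of cell composition in the fall of the 48 genes was not tested. The share of chloroplast-encoded counts was 3.13 to 4.09% in flg22+Ed leaves and 4.31 to 4.65% in Mock leaves at 300 min, and its part was not tested.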

How the data were processed

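3′ ends of leaf transcripts were sequenced (Smart-3SEQ) in 60 libraries. The authors' deposited table holds raw counts per gene; per the submitters' processing notes bcl2fastq 2.17.1.14, STAR 2.4.2a and the TAIR10 genome were used. The annotation, the counting tool, the use of strand and the collapsing of the 5-base molecular identifiers are not stated in the sources used.

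Genes with low counts were removed (filterByExpr of edgeR 4.0.16, R 4.3.3), which left 16763. All 60 libraries entered one quasi-likelihood fit with TMM scaling (factors 0.803 to 1.15), 20 groups, no block and 40 residual degrees of freedom, and p-values were adjusted over all genes (Benjamini-Hochberg, threshold 0.05). CPM use TMM-scaled totals. limma 3.58.1 (voom), DESeq2 1.42.0, other scalings and filters, a block for experiment and fits without single libraries were alternatives. Copy ratios and the summed share used exact permutation tests.

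Replicate numbers mark independent experiments per the series' design, and were taken to pair libraries for that reason; residuals correlated by a median of 0.114 within an experiment and -0.0672 between experiments, and 309 of 570 pairs within an experiment were above 0.1. Rank correlations between replicates lay between 0.822 and 0.981, and 0 of 60 pairs were identical. With 3 libraries a group, edgeR p-values rest on the spread between experiments within groups, pooled over all 20 groups. The 4 libraries with clock genes against the label are part of that spread. Genes given with values in each library were those with the 3 lowest and 3 highest changes in flg22+Ed leaves, the 3 smallest interaction p-values and the highest CPM of each class; others given so were chosen after their values were seen. Members and gene lists were chosen with earlier results of these data known.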

Additional observations from a re-analysis of the deposited data

Results flagged for a closer look

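The effect of flg22+Ed against Mock differed between 180 and 300 min for 40 of the 48 genes, each lower at 300 min, by an edgeR contrast of the difference that was added after the data were seen. Among the genes given with values in each library, the difference in log2 fold change (300 min less 180 min) was largest for LHCB2.3 (-2.67) and LHCA6 (-2.28). It was -1.81 for LHCB2.2, -1.66 for LHCB3, -1.59 for LHCB1.2 and -1.48 for LHCB6. Among the same genes it was also -1.73 for PSAD2, -1.13 for PSAD1, -1.46 for PETE2, -1.28 for LHCA4, -1.01 for PSAO and -0.83 for PSAH1.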

How the results depend on the processing

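For flg22+Ed against Mock at 300 min, 714 of 720 values of single genes under the alternatives kept their direction and call, and 6 lost the call (LHCB4.3 and LFNR2). For flg22 at 300 min 687 of 720 kept both, 23 lost the call, 9 gained it and 1 changed sign. Only 30 of the 48 genes were unchanged under every alternative. For Ed at 300 min 651 kept both, 39 lost the call, 21 gained it and 9 changed sign, with 26 of the 48 genes unchanged throughout. Counts of called genes moved in other comparisons. With the compared groups alone the counts were 0 for flg22+Ed at 120 min, 2 at 180 min, 0 and 1 for flg22 at 120 and 180 min, 1 for Ed at 300 min, 0 for flg22+Ed against Ed at 180 min, and 6 and 0 for Mock against untouched at 120 and 300 min. Without a filter they were 8 for flg22+Ed at 120 min, 0 and 4 for flg22 at 120 and 180 min, 5 for Ed at 300 min, 6 for flg22+Ed against Ed at 180 min and 1 for Mock against untouched at 180 min; with a 10 CPM filter Ed at 300 min gave 15. RLE scaling gave 10 for flg22+Ed at 120 min, 10 for flg22 at 180 min and 6 for flg22+Ed against Ed at 180 min, and library sizes alone gave 32 for flg22 at 180 min, 31 for flg22+Ed against Ed at 180 min and 0 for Mock against untouched at 120 min. Mock against untouched gave 2, 6, 7 and 13 without the 4 libraries at 60, 120, 180 and 300 min, 5 by DESeq2 at 120 min and 1 by limma-voom at 300 min. The cause of these shifts was not tested. Shares of all genes called are given only for the main fit and the fit without the 4 libraries. Whether counts in the other fits moved with those of all genes cannot be read from them.

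Leaving out single libraries gave 0 to 33 genes for flg22+Ed at 120 min, 21 to 41 at 180 min and 47 to 48 at 300 min. It gave 0 to 2, 1 to 23 and 41 to 46 for flg22 at 120, 180 and 300 min, and 2 to 10 for Ed at 300 min. Against Ed, flg22+Ed gave 0 to 30 at 180 min and 45 to 47 at 300 min, and against flg22 21 to 43 at 300 min. Mock against untouched gave 0 to 5, 1 to 4 and 0 to 10 at 120, 180 and 300 min.

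Some values near 0 at 300 min changed sign. By limma-voom LFNR2 stood at 0.0042 in flg22 and 0.25 in Ed leaves, and without the 4 libraries LHCB4.3 stood at 0.0043 in Ed leaves. In Ed leaves, leaving out single libraries gave -0.55 to 0.10 for LHCB1.4 and -0.54 to 0.035 for LHCB1.5 (both highest without the Mock library of experiment 3), -0.79 to 0.011 for LHCB4.3 (highest without that of experiment 2), -0.31 to 0.065 for PSAE2 (above 0 without that of experiment 1, at 0.017, or 3), and -0.39 to 0.18 for PSAF and -0.69 to 0.21 for LFNR2 (both highest without that of experiment 1). The replicate block gave 24, 40 and 48 genes for flg22+Ed at 120, 180 and 300 min, 23 and 45 for flg22 at 180 and 300 min and 9 for Ed at 300 min; of the calls at 300 min it changed those of PSAF in flg22 and LHCB2.3 in Ed leaves and no other. Depth limits LHCB4.3, the member with the fewest counts, with a mean of 12.8 CPM.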
